A study of Saccharomyces cerevisiae with 23 samples.

Results

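The genes described here are 9 yeast genes around the decision to enter meiosis: IME1, IME2, UME6, RIM11, RIM15, SIN3, RPD3, IDS2 and MDS3. They were taken by gene name from the 6867 listed genes, and all 9 were found, each once, at the position that RefSeq gives and with no other listed gene overlapping it. All 9 passed the filter on low genes, a mean of 1 FPKM or more, which left 6560 genes to test. FPKM is a count of sequenced fragments divided by gene length and by mapped depth, so levels of different genes can be compared within a library. Each value was deposited with a lower and an upper bound.

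Budding yeast enters meiosis when starvation allows IME1, a transcription factor that cannot bind DNA by itself, to be made. Ume6 binds a short site upstream of early meiotic genes and, in growing cells, brings the corepressor Sin3 and the histone deacetylase Rpd3 to them. Rim11, a kinase of the GSK3 family, phosphorylates Ime1 and Ume6, and Rim15, a kinase held back by nutrients, also acts on Ume6. Together Ime1 and Ume6 then activate the same genes, among them IME2, a kinase that drives premeiotic DNA replication and later raises the middle activator Ndt80. Ids2 is a modulator of Ime2, and Mds3 is a negative regulator of early meiotic genes that works with the TOR pathway.

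The study followed 1 strain, A 33606, in which the title places IME1 and IME4, an RNA methyltransferase gene, under pCUP1, the copper-responsive promoter of the metallothionein CUP1. IME1 is therefore read here under a promoter that is not its own, in every library and with no library of an unmodified strain. Cells grown overnight in BYTA were moved to SPO, the sporulation medium, and received copper sulphate at 2 h. Total RNA was sequenced in 23 libraries, 1 per time: 0 h, 2 h, every 0.25 h from 2.25 to 6 h, then 6.5, 7, 7.5, 8 and 10 h. There are no replicates. Libraries from 2 h on were compared as windows of consecutive times: 2 h (1 library), 2.25 to 3 h (4), 3.25 to 4.5 h (6), 4.75 to 6 h (6) and 6.5 to 10 h (5). A mean ± SD below is over the libraries of a window, and the labels describe no separate cultures. They do not say whether the 2 h library was taken before or after the copper.

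The libraries differed in overall level. The median gene had 19.5 FPKM in the deepest library, that of 4.75 h, for which the bounds imply 1467241 fragments on listed genes. In the shallowest, that of 7.5 h, the median gene had 2.55 FPKM and the bounds imply 368883 fragments. Median-of-ratios factors, which bring a typical gene to the same level in each library, ran from 0.256 at 7.5 h to 1.83 at 4.75 h. A single small RNA, SNR39B, held 52.1% of the summed FPKM at 0 h and 9.04% at 7.5 h. Values are given as deposited unless they are said to be after this scaling ("scaled"). In bulk RNA, fewer cells of a kind and less RNA per cell cannot be told apart.

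The DNA letters that Ume6 reads were looked up first, since they divide the genes below. The core of its site was searched as TAGCCGCC and as the shorter GCCGCC, on both strands, in the 600 bases before the annotated start of 5999 RefSeq genes of build R64. Each GCCGCC inside a TAGCCGCC counts for both. TAGCCGCC lay upstream of 169 genes, which is 2.82% of all promoters, and GCCGCC upstream of 682, or 11.4%. Of the 9 genes, IME2 held the long form, and IME2, UME6 and MDS3 held the short one. The other 6 held neither in this window, which for IME1 is the native promoter and not the one in this strain. The genome read is the RefSeq reference, not that of the strain. These are the sites of the 3 genes, with the searched letters in capitals and 12 bases on each side, read 5′ to 3′ on the strand that carries them. Below them is a long-form site of each of 5 other genes known to be under Ume6. HOP1 and INO1 hold a further site in the window that is not shown. Of 7 non-meiotic genes with reported Ume6 control, 3 held the long form.
IME2, chrX:220828-220859, minus strand, 550 to 543 bases before the start: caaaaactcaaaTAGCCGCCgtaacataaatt
IME2, chrX:220923-220952, minus strand, 455 to 450 bases before the start: ctgtggctttttGCCGCCgaagtctcgcgc
UME6, chrIV:867647-867676, minus strand, 142 to 137 bases before the start: caggcggaaactGCCGCCgtcaaaaagaaa
UME6, chrIV:867941-867970, plus strand, 436 to 431 bases before the start: acataagaacgtGCCGCCcattctgggaaa
MDS3, chrVII:124188-124217, plus strand, 498 to 493 bases before the start: atgtggtctgtgGCCGCCgtttcgtgggtt
SPO13, chrVIII:131938-131969, plus strand, 97 to 90 bases before the start: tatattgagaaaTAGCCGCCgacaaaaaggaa
HOP1, chrIX:226419-226450, minus strand, 171 to 164 bases before the start: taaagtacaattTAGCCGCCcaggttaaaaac
MEI5, chrXVI:321739-321770, minus strand, 128 to 121 bases before the start: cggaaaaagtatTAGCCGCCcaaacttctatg
INO1, chrX:136172-136203, plus strand, 258 to 251 bases before the start: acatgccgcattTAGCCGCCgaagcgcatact
CAR1, chrXVI:339775-339806, plus strand, 157 to 150 bases before the start: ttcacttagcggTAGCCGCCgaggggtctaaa

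IME1 (YJR094C, chrX:604569-605651), the inducer, was low at 0 h, present at 2 h and high from 2.25 h. It stood at 40.4 FPKM at 0 h (bounds 32.9 to 47.9), 818 at 2 h (786 to 851), 7908 at 2.25 h, 9734 at 2.5 h, 5194 at 2.75 h and 1609 at 3 h. The 2.5 h library was 241 times the 0 h library, and 6.05 times the 3 h library. After scaling the 2.25 h library was the highest, at 8648 against 8160 at 2.5 h. In the following 6 libraries, 3.25 to 4.5 h, IME1 was at 1624, 2610, 2630, 2224, 2865 and 1044 FPKM. From 4.75 to 6 h it was at 1899, 2446, 2694, 2978, 2314 and 1094 FPKM. These 2 windows overlap almost entirely, and both lie below the first 3 libraries after the copper. From 6.5 h on it was at 397, 225, 101, 237 and 118 FPKM, each below every library from 2 to 6 h. IME1 was the highest of the 9 genes in 20 of the 23 libraries, with its bounds apart from those of IME2 in all 20.

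The other induced gene followed the same course. IME4 was at 6.08 FPKM at 0 h, 89.7 at 2 h, 2615 at 2.25 h, 2950 at 2.5 h and 863 at 3 h, so that, as for IME1, the 2.5 h library was the highest as deposited, the 2.25 h library after scaling (2860), and the 3 h level was lower than both. The 4.5 h library was lower than both its neighbours for IME1 (1044 FPKM), for IME4 (460 FPKM) and for CUP1-1, the gene whose promoter drives them (365 FPKM, bounds 180 to 549). CUP1-1 lies wholly under other listed genes and has a near-identical copy, so its value is uncertain. Among 4103 genes averaging 10 FPKM or more, IME4 was the one most like IME1 over the 23 libraries, with a Pearson r of 0.94 on log2(FPKM + 1) after scaling. Next came YIL030W-A (0.92), which shares 51.0% of its length with another listed gene, then PUT3 (0.90), the activator of proline use, YLR416C (0.88), which is overlapped over 26.8% of its length, and CAR1 (0.88), arginase. The libraries form a single course and differ in depth, so these values describe likeness in time and carry no test.

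IME2 (YJL106W, chrX:221390-223327), the kinase, was low at 0 and 2 h and high from 2.25 h. It was at 3.68 FPKM at 0 h (bounds 2.07 to 5.28) and 3.44 at 2 h (1.94 to 4.94), the last resting on 21 implied fragments. It then stood at 405 FPKM at 2.25 h, 441 at 2.5 h, 326 at 2.75 h and 230 at 3 h. The 2.25 h library was 118 times the 2 h library, in which IME1 was at 818 FPKM. From 3.25 to 4.5 h IME2 was at 146, 248, 562, 420, 436 and 328 FPKM. From 4.75 to 6 h it was at 609, 587, 705, 863, 960 and 617 FPKM, each above every library up to 4.5 h as deposited. The highest was at 5.75 h, 6.57 times the 3.25 h library and 6.86 times after scaling. After scaling the windows overlapped: values ran from 332 to 842 from 4.75 to 6 h, and reached 521 from 3.25 to 4.5 h and 443 from 2.25 to 3 h. The last 5 libraries were at 542, 318, 122, 103 and 49.2 FPKM. IME2 was the gene below all the other 8 at 0 and 2 h, and above all but IME1 in each library from 2.25 to 6 h. Measured as for IME1, the 5 genes most like IME2 were SLZ1 (r = 0.97), PHO92 (0.96), YBR184W (0.93), NDC80 (0.91) and NDJ1 (0.91). By rank correlation after scaling YBR184W was in place 42 and NDJ1 in place 685, and the others in places 5 to 9.

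UME6 (YDR207C, chrIV:865012-867522), the DNA-binding factor, exceeded its 0 and 2 h values in all libraries between 2.25 and 7 h. It was at 14.3 FPKM at 0 h (11.6 to 17.1), 26.6 at 2 h (22.9 to 30.3), 107 at 2.25 h, 184 at 2.5 h, 167 at 2.75 h and 122 at 3 h. The 2.5 h library was 6.91 times the 2 h library. From 3.25 to 4.5 h it was at 91.7, 103, 117, 128, 230 and 135 FPKM, and from 4.75 to 6 h at 159, 132, 113, 101, 70.6 and 36.6 FPKM. Between 4.75 and 6 h each UME6 value was below the one before it, whereas the highest IME2 library was that of 5.75 h. The last 5 libraries were at 37.9, 42.4, 25.8, 103 and 48.2 FPKM, with the 8 h library 4.00 times the 7.5 h library and 1.46 times after scaling. SNF2, a chromatin remodeller, was the only one of the 5 genes most like UME6 outside the CUP1 repeat (r = 0.84). The others were YHR052W-A (0.85), RUF5-2 (0.84), RUF5-1 (0.84) and YHR054W-A (0.83), all at that copper-induced locus and overlapped by other listed genes. On deposited FPKM SNF2 was first.

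**Figure D1:**
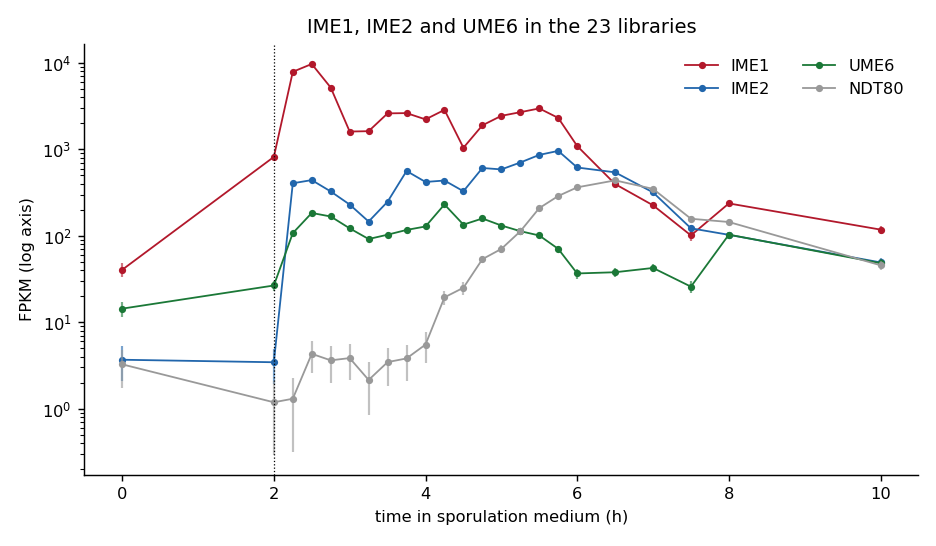
FPKM of IME1, IME2, UME6 and, for the time scale, NDT80 (log axis) against hours in sporulation medium; each point is 1 library, the vertical lines are the deposited bounds and the dotted line is 2 h, when copper was added. IME1 peaks at 9734 FPKM at 2.5 h as deposited (at 2.25 h after scaling), IME2 steps from 3.44 to 405 FPKM between 2 and 2.25 h and peaks at 5.75 h, and UME6 is at 36.6 FPKM at 6 h.

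Against the 2 h library, IME2 rose in the 4 libraries from 2.25 to 3 h (351 ± 93.8 FPKM, SD, n = 4), by 6.26 ± 0.86 on the log2(FPKM + 1) scale (SE, limma adjusted p = 0.000232). It was called, at an adjusted p under 0.05 and a log2 change of at least 1, as 1 of the 9 genes, and 0.823% of all genes tested were called higher. UME6 stood at 145 ± 36.3 FPKM (SD, n = 4) and changed by 2.37 ± 0.69 (limma adjusted p = 0.161), which is not called. After scaling its change was 2.29 ± 0.49 (limma adjusted p = 0.0174) and it was called with IME2, beside 1.04% of all genes. IME1, at 6111 ± 3534 FPKM, changed by 2.62 ± 0.82 and missed the test (limma adjusted p = 0.209), with all 4 libraries above the 2 h library. Leaving out the 3 h library, where IME1 was already at 1609 FPKM, brought it to 3.17 (limma adjusted p = 0.0364), a call that also held after scaling (3.15, limma adjusted p = 0.0263). The other 6 changed by -0.54 (RIM15) to 0.34 (RPD3), none called. The 2 h side is 1 library, assumed to vary like the rest.

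The early meiotic genes were compared over the same step. Of 26 early meiotic genes with reported Ume6 control, IME2 among them, 20 rose from 2 h to 2.25 to 3 h, and none fell. Their median change was 5.03, against 0.01 over all genes tested. The median level of the list was 2.06 FPKM at 2 h, 67.5 at 2.25 h and 182 at 2.5 h. MEI5, a partner of the meiotic recombinase, went from 0.610 to a mean of 650 FPKM, MEK1, a checkpoint kinase, from 0.660 to 235, HOP1, a chromosome axis protein, from 1.23 to 258, and SPO13, a regulator of the first division, from 2.11 to 216. The 6 that were not called had values in the same direction: MSH5 (2.89), REC102 (2.88), SPO11 (2.81), REC114 (2.44), ZIP2 (2.01) and REC107 (1.01). Of 7 non-meiotic genes with reported Ume6 control none was called, with a median change of 1.00. INO1, of inositol synthesis, was at 18.3 FPKM at 2 h and a mean of 193 FPKM after it, a change of 3.26 (limma adjusted p = 0.115). CAR1 was at 61.5 and 250 FPKM (1.98). After scaling INO1 (limma adjusted p = 0.0231) and HSP82, a chaperone (limma adjusted p = 0.0392), were called higher, beside 1.04% of all genes. Both were lower in the 2 h library than at 0 h: INO1 was at 59.5 FPKM at 0 h, and HSP82 at 101 FPKM at 0 h and 48.5 at 2 h.

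The same comparison was then divided by sequence, a split chosen after the data were seen. Of 167 tested genes with TAGCCGCC upstream, 24 were called higher, which is 14.4%, and none lower. Of 5686 tested genes without it, 18 were called higher, or 0.317%. After scaling these were 28 (16.8%) and 29 (0.510%). The median change was 0.87 with the site and 0.00 without it. Most genes with the site were therefore not called. IME2 was in place 5 of the 167 by the size of its change, behind MEI5, MEK1, HOP1 and NDJ1. Genes that share an upstream region share a site, as HOP1 and SPO22 do, and the early gene list rests in part on this site, which 17 of its 26 genes hold (65.4%). Of 671 tested genes with GCCGCC, those with the long form included, 29 were called higher, or 4.32%. Among the holders of the short form alone, REC8, the meiotic cohesin, was called higher, and UME6 (2.37) and MDS3 (0.12) were not. No test of this division was made.

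**Figure D2:**
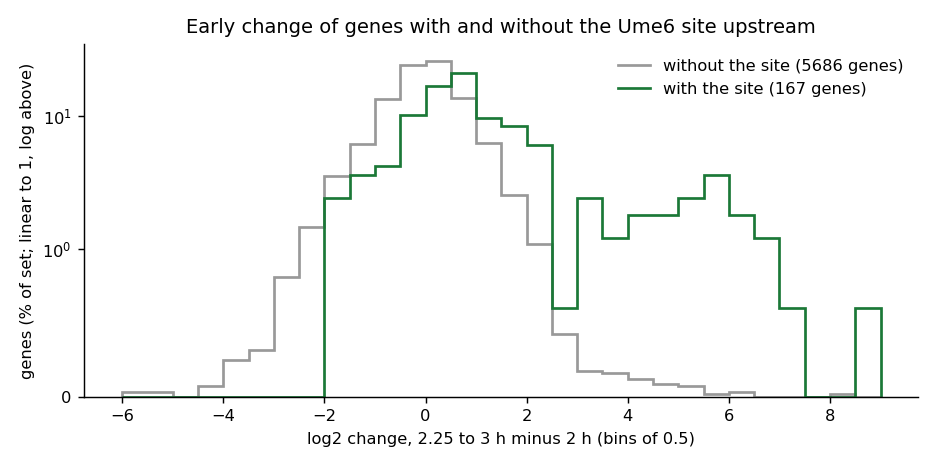
Share of genes (% of each set, axis linear to 1 and logarithmic above) in bins of 0.5 of the log2 change from 2 h to 2.25 to 3 h, for the 167 tested genes with TAGCCGCC in the 600 bases upstream and the 5686 without. All 24 called genes with the site lie at 3.30 or above, to the right of the bulk of both sets; the median is 0.87 with the site and 0.00 without it.

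From 2.25 to 3 h to 3.25 to 4.5 h none of the 9 genes was called in either direction, in a comparison that called 0.152% of all genes. The largest change was that of IME1, at -1.30 ± 0.47 (limma adjusted p = 0.340; called after scaling in the fit without the 3 h library, at -1.99), and IME2 and UME6 were at -0.06 and -0.14. From 3.25 to 4.5 h to 4.75 to 6 h none was called either, where 3.06% of all genes were called higher. IME2 stood at 357 ± 148 and then 724 ± 154 FPKM (SD, 6 libraries each), a change of 1.12 ± 0.45 (limma adjusted p = 0.198), and UME6 from 134 ± 49.8 to 102 ± 43.5 FPKM, a change of -0.47 (limma adjusted p = 0.607). In that step 3 of 8 Ime2 partners and substrates rose: NDT80 by 4.22 (limma adjusted p = 0.000573), SMK1, a MAP kinase of spore assembly, by 2.88 and CAK1, which activates it, by 1.57. NDT80 is the one still called after scaling (limma adjusted p = 0.00665). NDT80 first left its early range of 1.18 to 5.51 FPKM at 4.25 h (19.4 FPKM) and peaked at 438 FPKM at 6.5 h, after the highest library of IME2.

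From 4.75 to 6 h to 6.5 to 10 h, IME1 fell in both scalings. Its level was 2237 ± 668 FPKM (SD, n = 6) and then 216 ± 118 FPKM (n = 5), a change of -3.48 ± 0.45 (limma adjusted p = 4.34e-06) and of -2.27 ± 0.46 after scaling (limma adjusted p = 0.000620). IME2 went from 724 ± 154 to 227 ± 204 FPKM, a change of -2.14 ± 0.47 (limma adjusted p = 0.000810), and lost its call after scaling (-0.93, limma adjusted p = 0.191), where the last window held both 809 at 6.5 h and 50.6 at 10 h. UME6 went from 102 to 51.5 ± 30.0 FPKM and was not called, being just under the fold required (-0.99, limma adjusted p = 0.0325), though it was in the fits without the 5.75, 6, 8 or 10 h library (down to -1.27). After scaling its change was 0.20 (limma adjusted p = 0.572). In all 6 of the 9 were called lower on deposited FPKM, namely IME1, MDS3, IME2, RIM11, RPD3 and SIN3, against 43.8% of all genes and a median change of all genes of -0.99. After scaling the median of all genes was -0.06, and 2 of the 9 were called lower, IME1 and MDS3 (17.3% of all genes), and 1 higher, IDS2 (15.9% of all genes). The early list fell as a whole, with 26 of 26 called lower (median -3.95) and 24 after scaling (median -2.88). IME2 and MSH5 are the 2 not called after scaling.

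Within a library, the scaling drops out of a ratio. IME2 was at 0.420% of IME1 at 2 h, 5.13% at 2.25 h, 14.3% at 3 h, 32.1% at 4.75 h and 56.4% at 6 h. It passed IME1 at 6.5 h (ratio 1.37), 7 h (1.41) and 7.5 h (1.21), with the bounds apart at 6.5 and 7 h, and was at 0.43 and 0.42 at 8 and 10 h. The ratio of UME6 to SIN3, the corepressor it recruits, was 0.73 and 0.89 at 0 and 2 h, then 4.2, 4.6 and 5.0 at 2.25, 2.5 and 2.75 h. It was between 1.90 and 3.17 from 3 to 5.25 h, was 0.59 and 0.54 at 6 and 6.5 h, and 6.30 at 8 h. UME6 stood above SIN3 in 19 libraries, with bounds apart in 17, and below it with bounds apart in the 0, 6 and 6.5 h libraries.

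**Figure D3:**
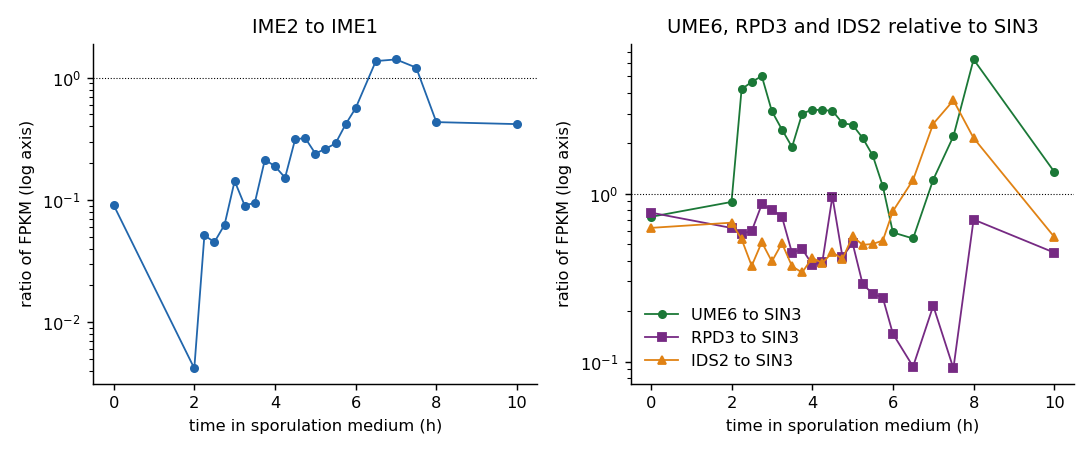
Ratios of FPKM within each of the 23 libraries (log axes) against hours in sporulation medium: left, IME2 to IME1; right, UME6, RPD3 and IDS2 to SIN3, with the dotted line at 1. The IME2 to IME1 ratio climbs from 0.0042 at 2 h to 1.41 at 7 h, and the UME6 to SIN3 ratio steps up at 2.25 h, dips below 1 at 6 and 6.5 h and reaches 6.30 at 8 h.

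SIN3 (YOL004W, chrXV:316938-321548) and RPD3 (YNL330C, chrXIV:18001-19302), the corepressor and the deacetylase, did not keep a fixed ratio. SIN3 ranged from 11.7 FPKM at 7.5 h through a median of 39.7 to 73.4 at 4.25 h, and RPD3 from 1.07 at 7.5 h, a value of 3 implied fragments, through 15.9 to 41.4 at 4.5 h. After scaling SIN3 was lowest at 8 h (23.3) and highest at 6.5 h (104), and RPD3 ran from 4.17 to 33.0 at the same libraries as before. RPD3 was below SIN3 in all 23 libraries, with bounds apart in 18. At 4.5 h RPD3 was at 0.96 of SIN3, and at 6.5 h, where SIN3 was at 70.0 FPKM and RPD3 at 6.53, it was at 0.093. SIN3 changed by -1.02 into the last window (limma adjusted p = 0.0151) and by 0.15 after scaling (limma adjusted p = 0.726), and RPD3 by -1.19 (limma adjusted p = 0.0229) and -0.17 (limma adjusted p = 0.656). Without the 7.5 h library, the shallowest, neither was called (-0.73 for SIN3, -0.71 for RPD3). RPD3 also lost its call without the 4.75 or 5 h library, and SIN3 without the 5.75 or 8 h library. Of the 12 genes of the Rpd3L complex, 10 were called lower at that step, where 43.8% of all genes were, and 1 higher (3.99% of all genes). After scaling 1 was lower (17.3% of all genes) and 1 higher (15.9%). The higher one both ways was RXT3, at a mean of 7.03 and then 29.6 FPKM (change 1.93). The lower one after scaling was SDS3, at 7.01 and 1.72 FPKM. ASH1, a repressor called lower on deposited FPKM, had window means of 39.8 FPKM at 2 h, 16.5, 10.6, 10.2 and 2.51. Among 4 genes of the Isw2 remodeller and the Tup1 corepressor, none was called on deposited FPKM, and ISW2 was higher after scaling, at 51.4 and 83.4 FPKM as deposited.

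RIM11 (YMR139W, chrXIII:546125-547237), the kinase of Ime1 and Ume6, had bounds that overlapped those of 2 h in each of the first 4 libraries after it. It was at 23.4 FPKM at both 0 and 2 h, and at 18.2, 24.2, 20.4 and 31.1 FPKM from 2.25 to 3 h. It was highest at 5 h (49.4 FPKM) and lowest at 7.5 h (3.87 FPKM, 9 implied fragments), a 12.8-fold range. After scaling it was highest at 5.75 h (32.9) and lowest at 10 h (9.54), a 3.45-fold range. Its last-window change was -1.82 ± 0.32 (limma adjusted p = 0.000124) and -0.69 after scaling (limma adjusted p = 0.0320), under the fold required. Its relatives in the GSK3 family are MRK1, MCK1 and YGK3. MRK1 was at 104 FPKM at 0 h and 31.2 at 2 h, at a mean of 16.2 FPKM from 3.25 to 4.5 h, and at 83.1 FPKM at 6.5 h. RIM11 was above MRK1 with bounds apart in 9 libraries, between 2.5 and 5.25 h, and below it with bounds apart in 6, those of 0 h and 5.75 to 7.5 h. MCK1, the most abundant of the family from 2 h on by window mean, was at 46.4 FPKM at 2 h and a mean of 82.0 from 4.75 to 6 h. YGK3 was listed at 0 at 0 h and had window means of 0.795 to 5.15 FPKM from 2 h on. It was the 1 of 4 called lower into the last window in both scalings, and RIM11 was called on deposited FPKM alone. At that step 43.8% of all genes were called lower as deposited and 17.3% after scaling.

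RIM15 (YFL033C, chrVI:69115-74427), the nutrient-regulated kinase, varied least of the 9 as deposited, 2.55-fold between its lowest and highest library, but 4.39-fold after scaling, where RIM11 varied least. It was at 13.7 FPKM at 0 h (11.9 to 15.6) and 26.7 at 2 h (24.2 to 29.1), a ratio of 1.94 with the bounds apart. It then stood at 21.9, 16.5, 14.7 and 19.9 FPKM from 2.25 to 3 h, below the 2 h library in each, and at 28.1 to 33.1 FPKM from 4.75 to 6 h. The last 5 libraries were at 35.0, 29.5, 14.1, 24.9 and 33.6 FPKM. After scaling the level was 12.5 at 2.75 h and 52.2, 55.0 and 55.0 from 6.5 to 7.5 h, and the last-window change went from -0.21 (limma adjusted p = 0.50) to 0.96 (limma adjusted p = 0.00210), just under the fold required and past it without the 5.75, 6, 8 or 10 h library. In the list of 10 genes of the Rim15 pathway, 5 were called lower and none higher into the last window, a share near the 43.8% of all genes called lower. After scaling PHO85, a cyclin-dependent kinase, and MSN4, a stress activator, were lower and GIS1, an activator of starvation genes downstream of Rim15, was higher. These scaled calls are near the shares of all genes, 17.3% called lower and 15.9% higher. GIS1 had window means of 31.2 FPKM at 2 h, 46.1, 68.7, 148 and 253.

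IDS2 (YJL146W, chrX:143292-144701), the Ime2 modulator, was low through the time when IME2 first appeared and rose late (spline fitted maximum at 6.95 h, range 1.78, limma adjusted p = 1.49e-05). It was at 12.3 FPKM at 0 h, 20.0 at 2 h, and 13.7, 14.8, 17.1 and 15.5 from 2.25 to 3 h. It stayed between 13.3 and 33.5 FPKM from 3.25 to 5.75 h, then stood at 49.0 at 6 h, 84.5 at 6.5 h, 91.3 at 7 h, 42.2 at 7.5 h, 35.1 at 8 h and 19.7 at 10 h. The 7 h library was 6.66 times the 2.25 h library, and 11.3 times after scaling. IDS2 was below SIN3 with bounds apart in 19 libraries and above it with bounds apart in the 4 from 6.5 to 8 h. Its last-window change was 0.58 ± 0.33 (limma adjusted p = 0.141) and 1.76 ± 0.44 after scaling (limma adjusted p = 0.00341), so its call rests on the scaling, although the 7 h library is above that of 5.75 h in both. Of the 8 partners and substrates of Ime2, SMK1 and CDH1, an activator of the anaphase-promoting complex, rose into the last window in both scalings, where 3.99% of all genes were called higher as deposited and 15.9% after scaling. CDC28, the cell-cycle kinase, and SIC1, its inhibitor, were called lower on deposited FPKM (-1.66 and -1.29), beside 43.8% of all genes, and not after scaling.

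MDS3 (YGL197W, chrVII:124698-129161), the negative regulator, had a deep and short trough. It was at 19.5 FPKM at 0 h, 36.0 at 2 h, between 27.3 and 50.9 in the 13 libraries from 2.25 to 5.25 h, and 28.5 at 5.5 h. It then stood at 14.7, 8.55, 3.72, 1.51, 1.10 and 6.52 FPKM from 5.75 to 8 h, and at 36.0 FPKM at 10 h (32.7 to 39.2), back at its 2 h level. The fewest implied fragments behind any of its values were 11.9, so its lowest levels are imprecise. The 10 h library was 23.8 times the 7 h library, and 13.2 times after scaling. Its last-window change was -2.21 ± 0.55 (limma adjusted p = 0.00235) and -1.23 ± 0.41 after scaling (limma adjusted p = 0.0226). With scaling, the call was lost in fits without the 4.75, 6.5, 7 or 7.5 h library (limma adjusted p up to 0.0813). The 10 h library, where MDS3 was high again, is in that window.

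PMD1 (YER132C, chrV:425188-430449), the paralogue of MDS3 with an overlapping role, ran the other way. It was at 16.1 FPKM at 2 h, 34.1 at 5.5 h, 47.6 at 6 h, 85.3 at 6.5 h, 87.4 at 7 h, 31.0 at 7.5 h, 28.6 at 8 h and 20.6 at 10 h. MDS3 was above PMD1 with bounds apart in 16 libraries, those of 0 to 5.25 h and 10 h, and below it with bounds apart in the 6 libraries from 5.75 to 8 h. The ratio of MDS3 to PMD1 was 2.24 at 2 h, 0.36 at 5.75 h, 0.044 at 6.5 h, 0.017 at 7 h and 1.74 at 10 h. After scaling PMD1 was called higher in the last window (1.67, limma adjusted p = 0.0051) and MDS3 lower. PMD1 was also in place 3 of 4103 genes by likeness to IDS2 (r = 0.97 after scaling), and MDS3 in place 4102 (r = -0.96). On deposited FPKM they were in places 13 (0.94) and 3970 (-0.78), and by rank correlation after scaling in places 467 (0.67) and 3794 (-0.67). The letters GNCACAAA, the core of the site that Ndt80 reads, lay upstream of 490 genes (8.17% of all promoters). None of the 9 genes held this core. In the other lists PMD1, NDT80, SMK1, RIM8, TPK2 and POT1 held it. Whether Ndt80 acts on PMD1 was not tested.
PMD1, chrV:430664-430695, minus strand, 234 to 227 bases before the start: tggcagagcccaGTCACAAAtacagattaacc
In the Mds3 and TOR list of 6 genes, 5 were called lower into the last window, with KOG1, SIT4, TAP42 and TOR1 beside MDS3, where 43.8% of all genes were called lower. After scaling MDS3 alone was lower (17.3% of all genes) and PMD1 alone higher (15.9%).

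**Figure D4:**
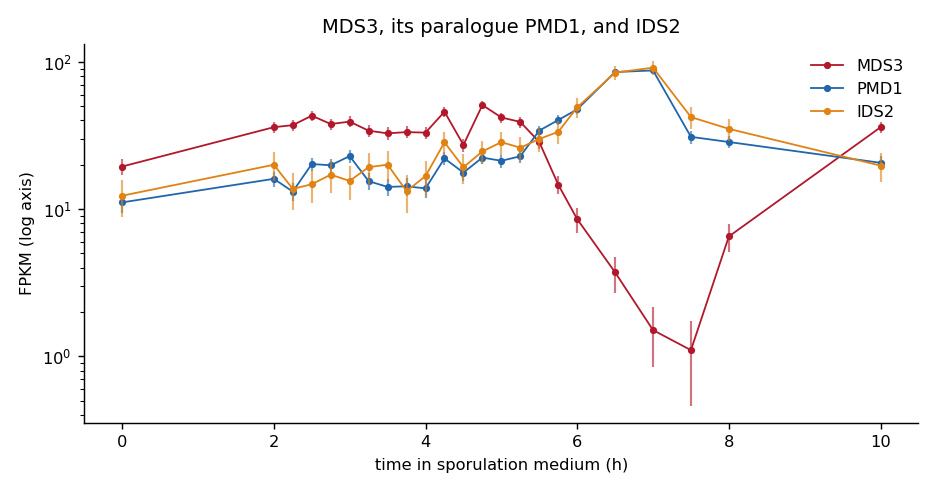
FPKM (log axis) of MDS3, PMD1 and IDS2 in the 23 libraries against hours in sporulation medium; points are single libraries and vertical lines the deposited bounds. MDS3 and PMD1 cross between 5.25 and 5.75 h, are furthest apart at 7 h (1.51 and 87.4 FPKM) and have crossed back at 10 h.

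**Figure D5:**
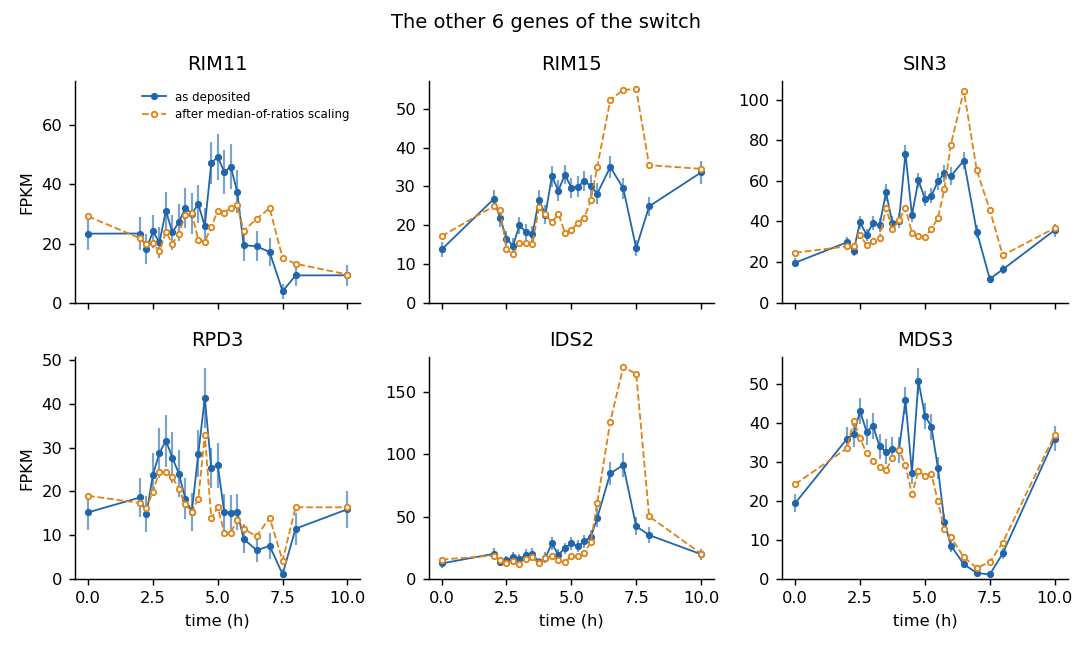
FPKM of RIM11, RIM15, SIN3, RPD3, IDS2 and MDS3 in the 23 libraries against hours (linear axes from 0), as deposited with the deposited bounds and after median-of-ratios scaling. The trough of MDS3 and the peak of IDS2 are seen on both scales, whereas the late level of RIM15 is 14.1 FPKM at 7.5 h as deposited and 55.0 after scaling.

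The start of the time in SPO was compared as 2 h against 0 h. Between these, 1 of the 8 that reach 10 FPKM, IME1, was at least 2-fold higher (20.3-fold), where 26.6% of all such genes were on deposited FPKM and 15.4% after scaling. RIM15 (1.94), UME6 (1.85), MDS3 (1.85) and SIN3 (1.51) were higher with their bounds apart, and IDS2 (1.62), RPD3 (1.22), RIM11 (1.00) and IME2 (0.94) had overlapping bounds. After scaling those of RIM15, UME6, MDS3 and SIN3 came to 1.45, 1.38, 1.38 and 1.13, and the bounds of UME6 and SIN3 then overlapped. An effect of the medium on pCUP1 and an early effect of copper cannot be told apart here, and 1 library on each side gives no replicate check.

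Over the whole course from 2 h, a spline test of time called 8 of the 9 genes, where 83% of all genes were called. It left out RIM15 (fitted range 0.92, limma adjusted p = 0.0125). After scaling it called 8 as well, with RIM15 (1.43) in and UME6 (1.23, limma adjusted p = 0.234) out, beside 78% of all genes. UME6 was called there without the 10 h library, and RPD3 lost its scaled call (range 1.11) without the 7.5 h library. The widest fitted ranges were those of IME1 (5.29, limma adjusted p = 5.61e-05), IME2 (4.05, limma adjusted p = 0.00424) and MDS3 (3.86, limma adjusted p = 1.25e-07). The narrowest call, SIN3 (1.29, limma adjusted p = 0.0326), was lost without the 4.25, 4.75, 5.5, 7 or 8 h library, and after scaling in 15 of 22 such fits.

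Lists of nutrient and pH pathway genes upstream of IME1 were compared over the same steps. From 2 h to 2.25 to 3 h, where 0.96% of all genes were called in either direction, none was called of 12 PKA and Ras genes, 10 Rim101 pathway genes, 10 Rim15 pathway genes and 9 other regulators of the IME1 promoter, with median changes of -0.35, 0.02, 0.00 and 0.16. With so few genes called, no call in lists of this size is near the background. Into the last window, after scaling, RAS1 and CYR1, adenylate cyclase, were higher among the PKA genes, RIM8 was higher and VPS4 lower in the Rim101 list, and PHD1 was higher among the regulators of IME1. PHD1, an activator of filamentous growth, was at 134 FPKM at 2 h and at window means of 36.3, 23.2, 41.7 and 82.2 FPKM after it. On deposited FPKM 3 of the 12 PKA and Ras genes, 5 of the 10 Rim101 genes and 4 of the 9 IME1 regulators were called lower into the last window and none higher, shares near or below the 43.8% of all genes. The scaled calls stand beside 15.9% of all genes called higher and 17.3% lower.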

How the data were processed

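Per the labels' protocols, a Ribopure kit gave total RNA, and libraries were primed with random hexamers. The authors deposited FPKM per gene with a lower and an upper bound, per the file headers; the header does not name the level of the bounds. Cufflinks 2.2.1, Bowtie, R64 and sacCer3 are named by the submitters' processing notes. For the annotation and strand setting, neither labels nor headers give a value, so reads of a gene and of an antisense partner cannot be told apart.

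Of 7132 rows per table, 11 with too many fragments and 254 with no gene name (at most 0.0161% of implied fragments) were left out. Fragments behind a value were implied from the bounds, taken as 2 standard errors, and cover counting error only. Values were tested as log2(FPKM + 1), which understates changes of low genes, in the 6560 genes averaging 1 FPKM or more. Tests were limma 3.58.1 in R 4.3.3, two-sided, with a trend in the variance and Benjamini-Hochberg adjustment over all genes tested. One fit had the 5 windows over 22 libraries, the other a natural spline of 4 df, called at an adjusted p under 0.05 and a change or fitted range of at least 1. The p-values measure the spread between consecutive libraries of one course. Residuals of neighbouring libraries had a median correlation of 0.05 (spline) and 0.11 (windows). Both fits were run on simulated data with independent noise and known changes from 3.25 h on. This did not cover the step from the single 2 h library or dependence between libraries. The comparison of 2 h with 0 h has no test and covers genes of at least 10 FPKM in either.

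Names were matched to RefSeq, where 6001 of 6675 systematic identifiers were found and 99.4% of those had the same position. Sequences are from RefSeq, build R64. No protein sequences were used here.

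The 9 genes, the 11 other lists and the naming rule were chosen with earlier results of these data known. The rule names the 9 genes; IME4, NDT80 and CUP1-1; per list up to 4 called genes with the largest change and up to 2 uncalled genes of highest mean; and the 5 genes most like IME1, IME2 and UME6. Further genes were named with their values known. Alternatives covered pseudocounts, filters, scalings, spline df, window borders, and leaving out each library; leaving out each library after scaling was added after the data were seen.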

Additional observations from a re-analysis of the deposited data

How the results depend on the processing

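Of 1468 alternative values, 1392 were counted as unchanged. For the change or fitted range of a single gene, this means the same direction and the same side of the threshold. Counts of called genes and lists of the most alike genes have no direction, and were counted as unchanged when the count or list stayed close. Single genes could therefore cross the threshold within a count that was taken as unchanged. The number of the 9 genes called from 2 h to 2.25 to 3 h was 1, and 2 after median-of-ratios scaling or quantile normalisation, and 1 to 2 with 1 library left out. Into the last window it was 6, and 3 after scaling. The text names the calls of the 9 genes that were lost or gained after median-of-ratios scaling or with 1 library left out. Those lost or gained under the other alternatives are not all named, and the cause was not tested.

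The changes of direction were in values that were not called as deposited, except for SIN3 in the last step and for the spline of IME2 and UME6 without the 2 h library, which sets the direction. The fitted range of RIM15 was signed -0.94 with a spline of 5 df. From 2.25 to 3 h to 3.25 to 4.5 h, later window borders gave 0.53 for IME2, 0.11 for UME6 and -0.016 for RPD3, which was also at -0.027 after scaling and -0.00938 after quantile normalisation. From 3.25 to 4.5 h to 4.75 to 6 h, IME1 was at -0.093 after scaling and -0.36 with later borders. Into the last window, scaling gave 0.20 for UME6, 0.96 for RIM15 and 0.15 for SIN3, and quantile normalisation gave 0.59 for RIM15.

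With 1 library left out, the signed spline range lay between -4.24 and 4.91 for IME2, between -2.02 and 2.39 for UME6 and between -0.96 and 0.97 for RIM15. The change of RIM11 after 2 h lay between -0.16 and 0.082. In the second step IME2 lay between -0.24 and 0.17 and RPD3 between -0.17 and 0.18. In the third step IME1 lay between -0.14 and 0.25, and in the last RIM15 between -0.31 and 0.0064.

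Depth limits the lowest values most: RPD3 at 7.5 h rests on 3 implied fragments, RIM11 there on 9, MDS3 at its fewest on 11.9 and IME2 at 2 h on 21. The first step has 1 library at 2 h, so it cannot be fitted without it. No paired analysis was possible because each time has 1 library and the labels give no shared replicate numbers.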
